A study of Danio rerio with 6 samples.

Results

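Neutrophils are short-lived white blood cells that crawl into a wound early and carry killing proteins in granules. They also assemble a membrane enzyme, the phagocyte NADPH oxidase, that passes electrons to oxygen to make superoxide. Its catalytic core is a membrane pair encoded by cybb and cyba, and it is switched on when cytosolic subunits such as those encoded by ncf1 and ncf4 and a Rac GTPase join it. In zebrafish larvae, mpx and lyz are standard markers of neutrophils around cut fins, although lyz is also found in some macrophages and the oxidase subunits are shared by neutrophils and macrophages.

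The 9 genes described here are mpx, lyz, npsn and lect2l (granule and secreted proteins), csf3r (a receptor), and cybb, cyba, ncf1 and ncf4 (oxidase subunits). They were taken by name from the 32266 genes of the deposited table, and all 9 had a row. The libraries were made from the fin fold, the thin skin fold around the tail, of zebrafish larvae 3 days old. Uncut folds gave 3 libraries, and folds collected 4 h after the fin was amputated gave another 3. The sample descriptions name DMSO, a solvent, in both groups, and name no genotype, strain, drug or number of larvae. Since no label ties a replicate to its own set of larvae, the p-values reflect the spread between these libraries, part or all of which may be technical.

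Total counts ran from 11216130 to 23019556 per library. Levels are given as counts scaled to a common library total (CPM) after TMM scaling, which sets the bulk of genes level between libraries, and 1 count was worth 0.0436 to 0.0972 CPM. The median log2 fold change over tested genes was 0.003 with that scaling and 0.26 with library totals alone, so every change is stated relative to the bulk of genes. The 9 fold markers found (such as and1, krt4 and tp63, genes of the fin fibres and epidermis) were abundant in all 6 libraries. Their summed level was 203155 to 214845 CPM uncut and 102591 to 116394 CPM after amputation. On the second principal component (14.4% of the variance) uncut replicate 1 was the outlying library. Fold tissue was sequenced, so more neutrophils, more RNA per neutrophil and RNA of other cells that share these genes cannot be told apart. Nor can a smaller share of RNA from the fold's own cells be told apart from these.

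Of the 9 genes, 8 rose after amputation and none fell, while ncf4 did not pass the test. The test was edgeR's quasi-likelihood test, and a call needed an adjusted p (Benjamini-Hochberg) below 0.05. By that rule 40.4% of 17883 tested genes were called, 20.8% higher and 19.6% lower. In the same 8 genes all 3 amputated libraries lay above all 3 uncut libraries, as in 26.9% of tested genes (24.1% had all amputated libraries below). The median log2 fold change of the 9 genes was 2.17, beside 0.003 over all tested genes. Their summed level was 31.8 to 47.9 CPM in uncut libraries and 105.5 to 157.4 CPM in amputated ones. The granule genes had the larger fold changes, and the oxidase subunits spread from a 3.71-fold rise (cybb) to no call (ncf4).

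**Figure D1:**
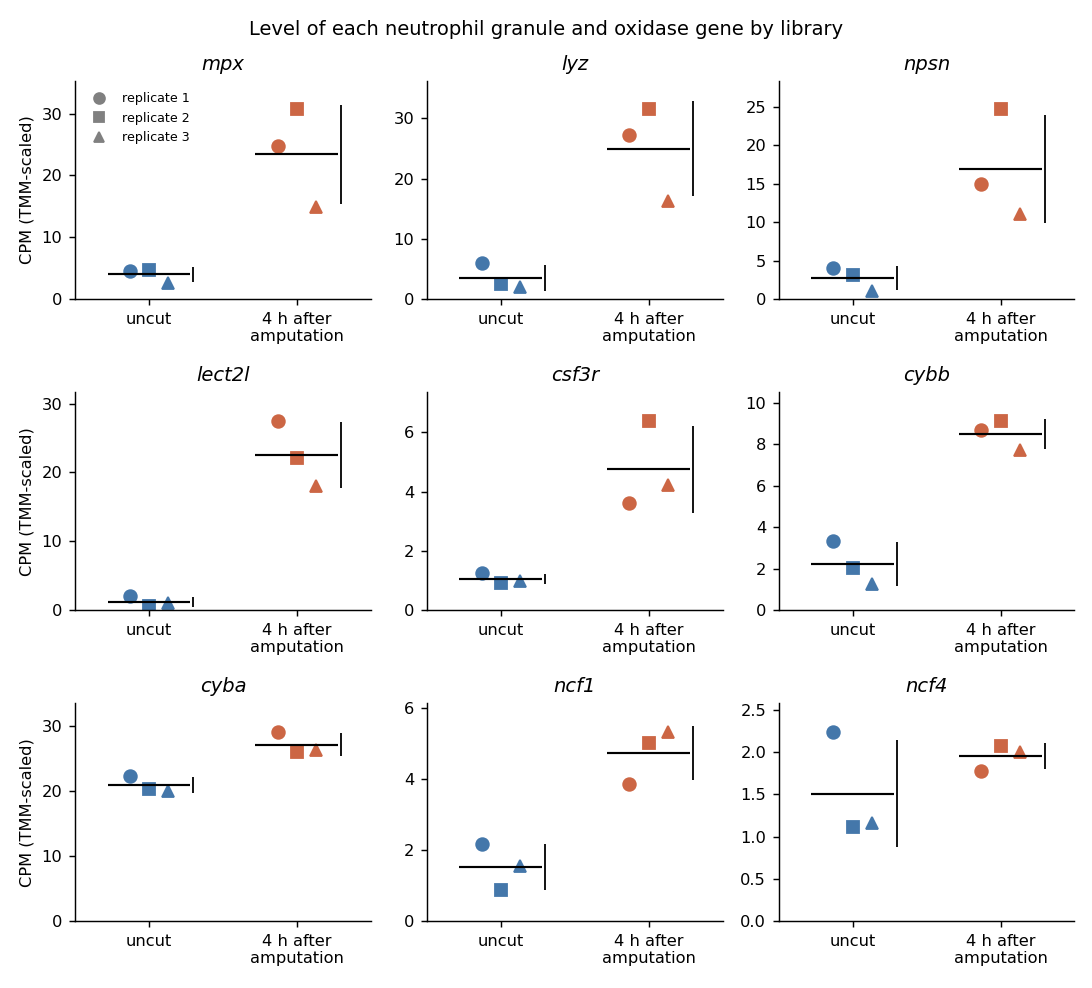
Level of each gene in CPM after TMM scaling (y axis, from 0) in uncut folds and 4 h after amputation; symbols mark replicates 1 to 3, horizontal bars the mean and vertical bars ± 1 SD. For 8 genes every amputated library lies above every uncut one, and for ncf4 the groups overlap.

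The gene mpx encodes the myeloid peroxidase, the granule enzyme that turns hydrogen peroxide and chloride into hypochlorous acid. It lies on chromosome 10, 7815556 to 7827254. All coordinates come from the deposited table, and the sources used here name no genome build for it. Its level was 4.55, 4.79 and 2.63 CPM in uncut replicates 1, 2 and 3, from 69, 103 and 27 counts. In amputated replicates 1, 2 and 3 it was 24.8, 30.7 and 14.8 CPM, from 500, 638 and 340 counts. The groups were far apart, with the lowest amputated library 3.09 times the highest uncut one. This was a 5.64-fold rise, with a log2 fold change of 2.50 ± 0.27 (SE; edgeR adjusted p = 2.01e-05).

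The gene lyz (chromosome 24, 23890689 to 23893626) encodes lysozyme, which cuts the peptidoglycan of bacterial walls. It stood at 6.0, 2.56 and 2.04 CPM in uncut replicates 1, 2 and 3 and at 27.2, 31.5 and 16.2 CPM in the amputated ones. Uncut replicate 1 was the highest of its group, and amputated replicate 3 was the lowest of its group, as it was for mpx. On the log2 scale lyz rose by 2.80 ± 0.32 (SE; edgeR adjusted p = 3.64e-05), and by 3.39 without uncut replicate 1. The gene npsn (chromosome 7, 38382223 to 38388219) encodes nephrosin, a metalloprotease of the astacin family. Its level was 4.02, 3.12 and 1.07 CPM in uncut replicates 1, 2 and 3, and 14.9, 24.6 and 11.0 CPM in the amputated ones. The order of libraries resembled that of lyz, with uncut replicate 3 and amputated replicate 3 at the bottom of their groups. The rise of npsn was 2.54 ± 0.35 on the log2 scale (SE; edgeR adjusted p = 0.00012). The npsn row overlaps that of the transporter gene slc7a9, which held 121 counts over all libraries, and the library kit used does not mark strand, so reads in the shared stretch cannot be assigned.

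The gene lect2l (chromosome 14, 36545210 to 36546749) encodes a protein like leukocyte cell-derived chemotaxin, which in mammals is secreted by the liver. It had the largest fold change of the 9 genes. The uncut libraries, in the order of replicates 1, 2 and 3, held 31, 12 and 11 counts, or 2.04, 0.558 and 1.07 CPM. Amputated replicates 1, 2 and 3 held 556, 459 and 412 counts, or 27.5, 22.1 and 18.0 CPM. The lowest amputated library was 8.80 times the highest uncut one, the widest gap among the 9 genes. The difference was 19.1-fold and ranked 21 among all rises, at 4.26 ± 0.30 on the log2 scale (SE; edgeR adjusted p = 1.27e-06). In the authors' deposited table it was 3.48 ± 0.29, whereas DESeq2 run here on the same counts gave 4.21. Without uncut replicate 1 the edgeR value was 4.94.

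The table held 3 further rows whose deposited human ortholog is LECT2, singled out after their values were seen. The nearest, also on chromosome 14 (36549579 to 36552901), was named only as a LECT2 copy. Its counts were 15, 14 and 5 in the uncut libraries and 80, 42 and 50 in the amputated ones, in replicate order. That copy rose by 1.90 ± 0.36 (SE; edgeR adjusted p = 0.00135). The other LECT2 copies were at or below 10 counts in every library and were too sparse to test. No source used here says how reads shared between such copies were counted, so the split between lect2l and its neighbour is uncertain.

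The receptor gene csf3r (chromosome 16, 3207375 to 3230290) encodes the receptor of granulocyte colony-stimulating factor (G-CSF), the cytokine that drives production and survival of neutrophils. Its level was 1.25, 0.930 and 0.972 CPM in uncut replicates 1, 2 and 3, from 19, 20 and 10 counts. It was 3.61, 6.39 and 4.23 CPM in the amputated ones, from 73, 133 and 97 counts. The uncut libraries lay close together, and all amputated libraries were above them. It rose 4.51-fold, or 2.17 ± 0.28 on the log2 scale (SE; edgeR adjusted p = 8.86e-05). The ligand gene csf3b was too sparse to test, with 2, 4 and 0 counts in the uncut libraries and 10, 17 and 11 in the amputated libraries. The other ligand gene, csf3a, held 15 counts over the uncut group and 23 over the amputated group. Of 9 tested genes of the G-CSF pathway 7 rose and 1 fell, with a median log2 fold change of 0.78. Over all tested genes 20.8% rose and 19.6% fell. The feedback inhibitor socs3b went from 24.3 ± 2.25 to 133 ± 35.3 CPM (SD, n = 3), the transcription factor gene stat3 from 54.3 ± 5.16 to 123 ± 9.26 CPM, and the phosphatase gene ptpn6 from 3.95 ± 0.17 to 9.68 ± 1.05 CPM. Among the kinases, jak1 rose by 0.78 and jak2b fell by 0.31 on the log2 scale. With libraries scaled by their totals alone, jak2b was at −0.05 and was not called. These kinases and STAT genes serve many cytokines and many cell types.

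The oxidase subunits did not share one fold change. The catalytic subunit gene cybb (chromosome 11, 29547981 to 29569255) was at 3.36, 2.05 and 1.26 CPM in uncut replicates 1, 2 and 3 and at 8.66, 9.13 and 7.72 CPM in the amputated ones. The amputated libraries were close to one another, while the uncut ones differed 2.66-fold from highest to lowest. The rise of cybb was 1.89 ± 0.24 on the log2 scale (SE; edgeR adjusted p = 7.91e-05), a 3.71-fold rise. The organiser subunit gene ncf1 (chromosome 5, 60747820 to 60760976) was at 2.17, 0.884 and 1.56 CPM uncut and at 3.86, 5.0 and 5.32 CPM after amputation, in the order of replicates 1, 2 and 3. Here amputated replicate 3, the lowest for the granule genes, was the highest. On that scale ncf1 rose by 1.67 ± 0.29 (SE; edgeR adjusted p = 0.000651).

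The gene cyba (chromosome 18, 31094846 to 31097287) encodes the small membrane partner that stabilises cybb, and in mammals it also pairs with other oxidases outside phagocytes. Its level was 22.3, 20.4 and 20.0 CPM in uncut replicates 1, 2 and 3 and 29.1, 26.0 and 26.3 CPM in the amputated ones. Both groups were tight and did not overlap, but the step between them was small. It was a 1.3-fold rise, or 0.37 ± 0.10 on the log2 scale (SE; edgeR adjusted p = 0.00843). Without amputated replicate 1 it was 0.32 and lost its call (edgeR adjusted p = 0.0517), and with library totals alone it was 0.63, where the median gene was at 0.26. The regulatory subunit gene ncf4 (chromosome 22, 29255690 to 29302854) encodes the subunit that binds a membrane phosphoinositide. It was at 2.24, 1.12 and 1.17 CPM in uncut replicates 1, 2 and 3 and at 1.78, 2.07 and 2.01 CPM in the amputated ones. Uncut replicate 1 was the highest of all 6 libraries, and the groups overlapped. Its log2 fold change was 0.37 ± 0.30 (SE; edgeR adjusted p = 0.346), with a 95% interval from −0.27 to 1.02. Its estimate rested on uncut replicates 1 and 2: it was 0.78 without uncut replicate 1 (edgeR adjusted p = 0.0502) and 0.14 without uncut replicate 2 (0.774). The ncf4 row overlaps that of the parvalbumin gene pvalb7, which held 75 counts over all libraries beside 70 uncut and 125 amputated counts of ncf4.

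Of 6 tested genes in the list of other phagocyte oxidase genes 2 rose, 1 fell and 3 were not called, with a median of 0.14, a share near that over all genes. Those that rose, by 0.51 and 0.32, were rap1ab and rac1b, GTPase genes with broad roles, and the call of rac1b was lost with DESeq2 (adjusted p = 0.0623). It was also lost without uncut replicate 1 (0.0827) or 2 (0.0564) and without amputated replicate 1 (0.167) or 3 (0.0627). The gene that fell was rac2, the GTPase that serves the oxidase in leukocytes. Its level was 148, 124 and 129 CPM in uncut replicates 1, 2 and 3 and 113, 105 and 103 CPM in the amputated ones. It was at −0.32 ± 0.09 (edgeR adjusted p = 0.0109), but at −0.06 and not called with library totals alone. The proton channel gene hvcn1, which balances charge during superoxide production, had a log2 fold change of −0.22 ± 0.11 and was not called.

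The dual oxidase gene duox, which makes hydrogen peroxide in epithelia and is known for the early peroxide signal at larval zebrafish wounds, fell. It was at 41.0, 28.5 and 42.7 CPM in uncut replicates 1, 2 and 3 and at 18.2, 9.42 and 13 CPM in the amputated ones. The groups did not overlap, and the log2 fold change of duox was −1.46 ± 0.21 (SE; edgeR adjusted p = 0.000163). Of 5 tested genes in the list of other NADPH oxidase genes 1 rose, 1 fell and 3 were not called, with a median of −0.08, again a share near that over all genes. With library totals alone that median was positive, at 0.17. The gene nox1 was at −0.25 ± 0.30 and did not pass. The organiser gene noxo1a was at 0.57 ± 0.21 (edgeR adjusted p = 0.0483). That call was lost in 8 of the alternatives that keep the threshold, among them DESeq2 (adjusted p = 0.06) and each single library left out except amputated replicate 2. The neighbouring row named duox2, whose deposited human ortholog is DUOXA1, a dual oxidase maturation factor, fell by 1.36 ± 0.47 (edgeR adjusted p = 0.0346), and was singled out after its value was seen.

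**Figure D2:**
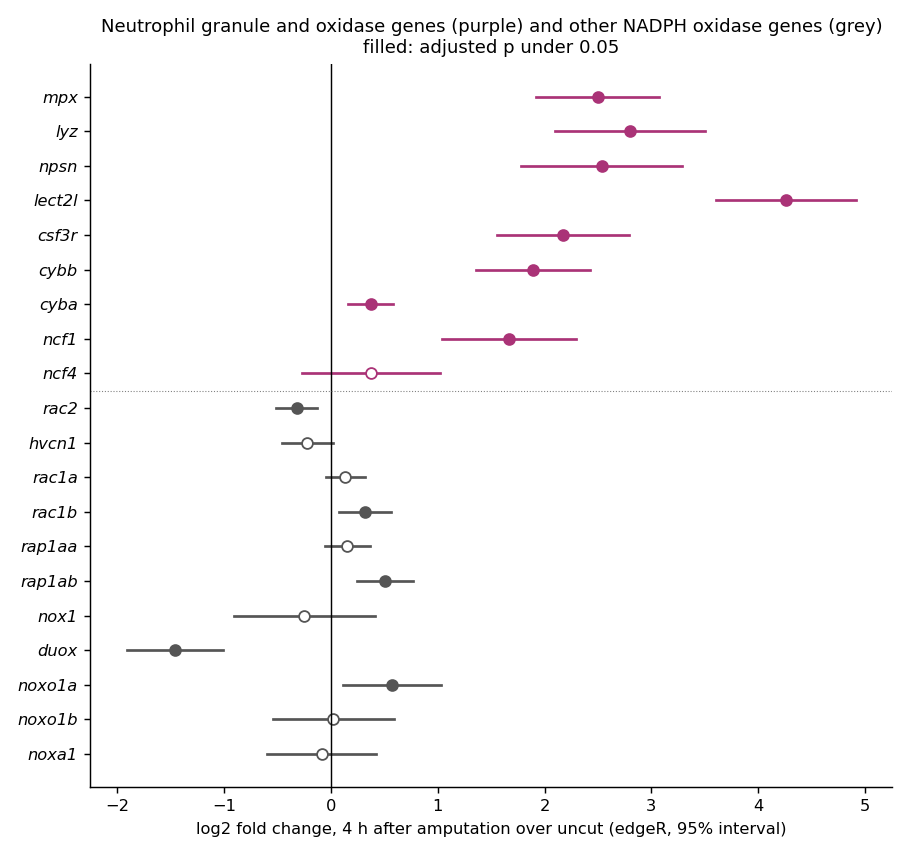
Log2 fold change 4 h after amputation over uncut (x axis) with its 95% interval from edgeR, for the neutrophil granule and oxidase genes (purple, above the dotted line) and other NADPH oxidase genes (grey); filled points have an adjusted p under 0.05. The gene lect2l stands furthest right at 4.26 and duox furthest left at −1.46, while cyba and ncf4 sit at 0.37.

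Ratios between genes within a library remove library size, and they show whether the genes moved by the same factor. Gene length cancels only in the difference between groups, so a ratio within a library still carries the lengths of both genes. Each gene's counts were divided by those of mpx, with 0.5 added to both, and the log2 ratio was compared between groups in an exact two-sided permutation test over the 6 libraries. With 3 against 3 the smallest p is 0.10, so no ratio could pass a threshold of 0.05. Of 8 ratios, those of lect2l, cyba and ncf4 did not overlap between groups (exact permutation p = 0.10 each, 0.267 adjusted over the 8). The share of all tested genes whose ratio to mpx did not overlap was not computed. The lowest amputated level of mpx was 3.09 times its highest uncut level, so a gene that changed little has a lower ratio to it. The lower ratios of cyba and ncf4 therefore largely restate the rise of mpx. The counts of lect2l were 45.3%, 12.1% and 41.8% of those of mpx in uncut replicates 1, 2 and 3. After amputation they were 111%, 72.0% and 121%. The ratio of lect2l was thus higher in every amputated library, by 1.80 on the log2 scale, but by 1.18 without uncut replicate 2 and 2.14 without uncut replicate 1. The counts of cyba were 487%, 424% and 751% of those of mpx in uncut replicates 1, 2 and 3 and 118%, 84.8% and 177% in the amputated ones. The ratio of cyba was lower in every amputated library, and its difference was −2.15 on the log2 scale. For ncf4 the ratio differed by −2.10, from 49.6%, 23.7% and 45.5% of the counts of mpx to 7.29%, 6.81% and 13.7%.

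The other ratios to mpx overlapped between groups. The ratio of lyz to mpx differed by 0.39 on the log2 scale (exact permutation p = 0.40) and that of npsn by 0.19 (exact permutation p = 0.70). After amputation lyz was close to mpx in count in each library, at 110%, 103% and 109% in replicates 1, 2 and 3, whereas uncut replicates 1, 2 and 3 were at 132%, 53.6% and 78.2%. The ratios of csf3r, cybb and ncf1 differed by −0.42, −0.51 and −0.85 (exact permutation p = 0.50, 0.30 and 0.20). Same-numbered libraries deviated together, and this test does not use the pairs. Within the pairs the ratio of ncf1 was lower after amputation in all 3, with differences of −1.62, −0.20 and −0.74 for numbers 1, 2 and 3. The ratios of cyba and ncf4 were also lower in all 3 pairs, and that of lect2l was higher in all 3. The others were mixed in direction, and with 3 pairs the smallest two-sided exact p is 0.25. Overlap here does not show that these genes moved by the same factor, since the uncut values rest on as few as 10 counts.

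**Figure D3:**
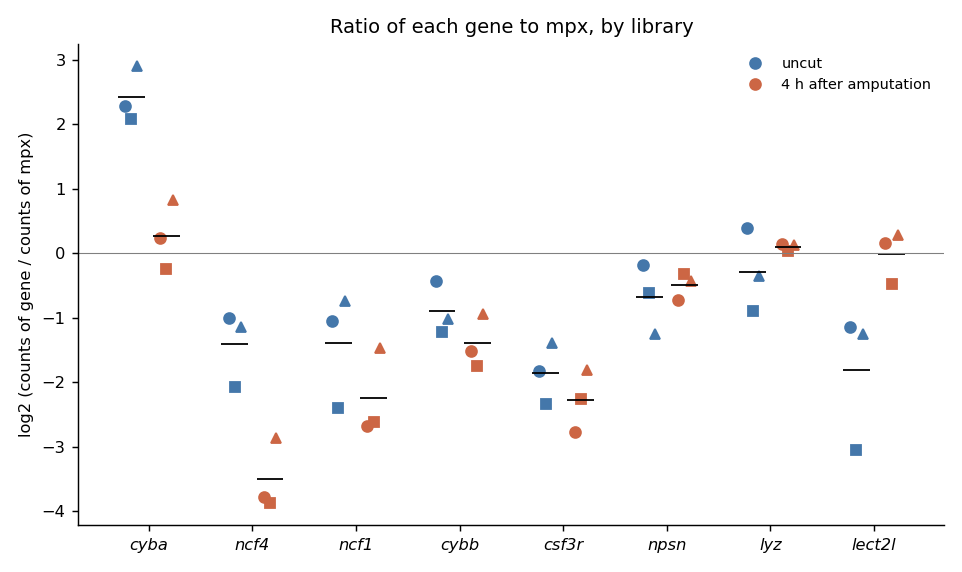
Log2 ratio of each gene's counts to those of mpx (y axis) in each library, uncut in blue and 4 h after amputation in orange; symbols mark replicates 1 (circle), 2 (square) and 3 (triangle), and bars the group means. Only for cyba, ncf4 and lect2l do the groups not overlap, with differences of −2.15, −2.10 and 1.80.

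The libraries of a group differed in their level of these genes. Among uncut libraries replicate 1 was the highest for 8 of the 9 genes, the exception being mpx. Among amputated libraries replicate 3 was the lowest for 5 genes, which were mpx, lyz, npsn, lect2l and cybb. The shares of all tested genes with these orders were not computed, so the orders may not be particular to the 9 genes. The summed level of the 4 granule genes was 16.6, 11.0 and 6.81 CPM in uncut replicates 1, 2 and 3 and 94.4, 108.8 and 60.0 CPM in the amputated ones. The summed level of the 4 oxidase genes, most of it cyba, was steadier, at 30.04, 24.4 and 24.0 CPM uncut and 43.4, 42.2 and 41.3 CPM amputated. Set against counting error, the 3 amputated counts of mpx, lyz and npsn had a chi-square per degree of freedom of 60.9, 55.4 and 63.5, where counting alone gives about 1. That measure was 1.35 for cybb, 2.60 for ncf1 and 0.236 for ncf4 in the amputated group. In the uncut group it was 4.10 for mpx, 19.0 for lyz and 9.17 for npsn, beside 6.41 for cybb, 5.17 for ncf1 and 4.23 for ncf4. At an equal relative spread the measure grows with the count, so it does not rank the genes by their spread.

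Of 17 tested genes in the list of other neutrophil granule and surface genes 12 rose and none fell, with a median log2 fold change of 1.71, where 20.8% of all tested genes rose. Among the 12 is the protease gene cpa5, which also stands in the list of mast cell and eosinophil markers. The proteoglycan gene srgn, which packs granules, rose from 6.05 ± 1.11 to 19.5 ± 1.66 CPM (SD, n = 3). The leukocyte integrin chain itgb2 rose from 1.48 ± 0.36 to 6.52 ± 1.09 CPM, and fcer1gl, a signalling chain of immune receptors, from 1.64 ± 0.55 to 7.31 ± 1.23 CPM. The leukotriene enzyme gene lta4h rose by 1.21 ± 0.12, while alox5ap, at 1.27 ± 0.41, lost its call when uncut replicate 2 was left out (0.77, edgeR adjusted p = 0.132). The same held for uncut replicate 3 (edgeR adjusted p = 0.072) and for amputated replicates 1, 2 and 3 (0.0849, 0.0547 and 0.051). The gelatinase gene mmp9 (4.65 ± 0.16), the collagenase gene mmp13a (4.87 ± 0.24) and adam8a (2.65 ± 0.14) are also made by cells of the wounded skin. The gene scpp8 was nearly silent in uncut libraries, with 0, 1 and 0 counts, and reached 13, 22 and 13 counts after amputation.

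Chemokine receptor genes were sparse. The receptor gene cxcr1 had no count in any uncut library and 2, 4 and 10 counts in amputated replicates 1, 2 and 3. It was 3.92-fold higher if the uncut group as a whole is given a floor of 3 counts. This floor allows for counting error in the uncut group alone, and the error of the amputated counts of cxcr1 is not covered. Its relative cxcr2 held 1 count over the uncut group and 4 over the amputated group. The retention receptor gene cxcr4b was at 0.18 ± 0.23 and did not pass, but was at 0.52 without uncut replicate 1 (edgeR adjusted p = 0.0458). Of 8 tested genes of neutrophil guidance 4 rose and 1 fell, with a median of 0.45, where 20.8% of all tested genes rose and 19.6% fell. The chemokine gene cxcl18b rose from 1.53 ± 0.67 to 4.54 ± 0.76 CPM (SD, n = 3), and the leukotriene receptor gene ltb4r from 0.844 ± 0.397 to 3.27 ± 0.90 CPM. The chemokine gene cxcl8b.1 was too sparse to test, with 2, 0 and 0 counts in the uncut libraries and 15, 10 and 1 in the amputated libraries. The lipoxygenase gene alox5a was at −0.53 ± 0.18 (edgeR adjusted p = 0.0342). Its call was lost without uncut replicate 1 (0.0656), uncut replicate 3 (0.0836), amputated replicate 2 (0.132) or amputated replicate 3 (0.0945). It was also lost when libraries were scaled by totals (0.211).

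Of 11 tested myeloid transcription factor genes 4 rose, 1 fell and 6 were not called, with a median of 0.29, a share near the 40.4% called over all tested genes. The myeloid factor genes spi1b and spi1a rose by 2.62 ± 0.20 and 1.38 ± 0.27. The gene cebpb, which drives emergency granulocyte production in mammals, rose from 63.8 ± 8.55 to 132 ± 3.87 CPM (SD, n = 3). In contrast cebpa, which directs granulocyte fate in marrow, fell from 139 ± 4.80 to 50.8 ± 10.5 CPM (SD, n = 3; log2 fold change −1.45 ± 0.12, edgeR adjusted p = 3.94e-06). Both cebpa and cebpb are also used outside blood, in epidermis among other tissues. The granulocyte gene cebp1 was at 0.29 ± 0.23 and did not pass.

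Markers of other blood cells were read in the same libraries. Of 11 tested macrophage markers 10 rose and none fell, with a median of 1.80, where 20.8% of all tested genes rose and 19.6% fell. The 10 include irf8, which also counts among the myeloid transcription factors that rose. The summed level of the macrophage markers was 34.6 to 37.0 CPM uncut and 89.9 to 95.4 CPM after amputation. The pore-forming protein gene mpeg1.1 was at 7.57, 7.596 and 7.37 CPM in amputated replicates 1, 2 and 3, and the scavenger receptor gene marco at 6.93, 6.83 and 7.81 CPM. The macrophage sum thus differed little among amputated libraries, whereas that of the 4 granule genes ran from 60.0 to 108.8 CPM. Macrophages also express oxidase subunit genes, and the part of macrophages in the rises of cybb and ncf1 was not tested.

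The counts for the next lists stand beside the same shares over all tested genes, 20.8% higher and 19.6% lower. None of 6 tested erythrocyte markers was called in edgeR's test, with adjusted p between 0.572 and 0.984. Their summed level was 70.9 to 180 CPM uncut and 89.8 to 156 CPM after amputation. No lymphocyte marker had enough counts to test, and the summed level of the 8 markers was 0.791 to 1.98 CPM uncut and 0.913 to 1.49 CPM amputated, with cd8a at 0 counts throughout. Of 3 tested thrombocyte markers 1 rose, the coagulation factor gene f5 at 3.82 ± 0.39, while the defining markers itga2b and mpl held 8 and 4 counts over the amputated group. Of 5 genes in the mast cell and eosinophil list 1 rose and 3 fell. The mast cell protease gene cpa5 rose from 0.37 ± 0.25 to 2.15 ± 0.46 CPM (SD, n = 3), while kita, which also marks pigment cells, and alox12 fell by 1.03 and 0.90 on the log2 scale. The fall of gata2a, by 0.67, lost its call when uncut replicate 1 (edgeR adjusted p = 0.0655) or amputated replicate 1 (0.0604) was left out, and under scaling by library totals (0.102). The histamine enzyme gene hdc, at −0.91 ± 0.41 and not called, was called once replicate number entered as a block (−1.02, edgeR adjusted p = 0.0165). All 9 fold markers fell, though krt4 and krt5 lost their calls with library totals alone (edgeR adjusted p = 0.123 and 0.0811) and col1a1a was not called in the authors' deposited table (adjusted p = 0.0532). The call of krt4 was also lost without uncut replicate 3 (0.0583) or amputated replicate 2 (0.0795) or 3 (0.0634).

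**Figure D4:**
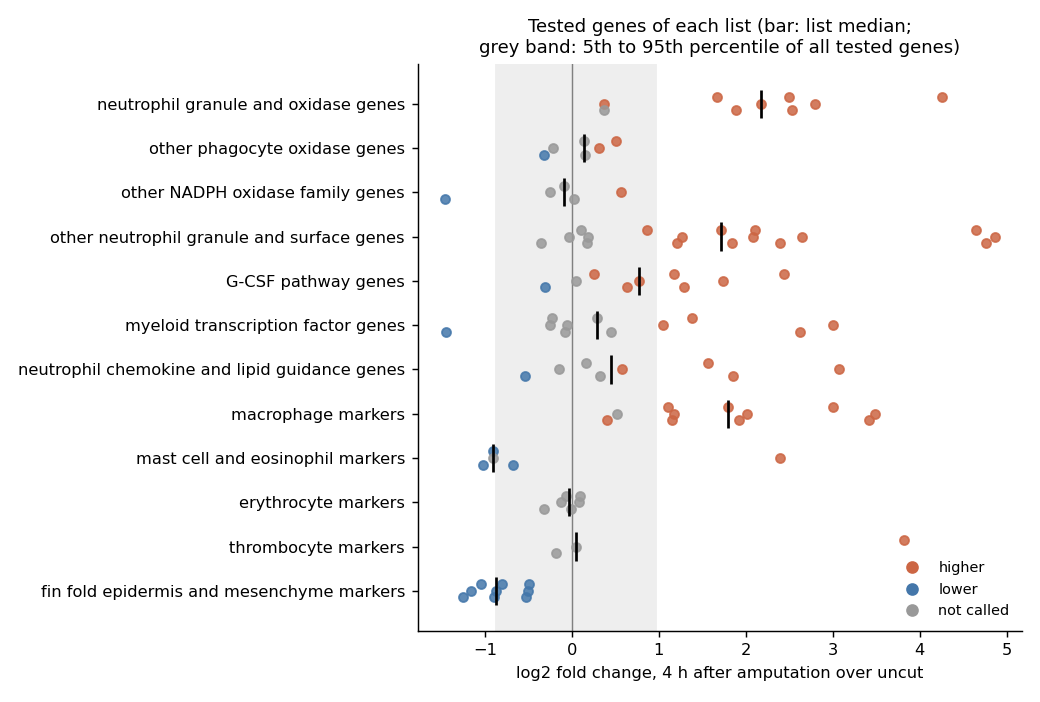
Log2 fold change 4 h after amputation over uncut (x axis) of every tested gene in each list, orange where higher, blue where lower and grey where not called; black bars are list medians and the grey band spans the 5th to 95th percentile of all tested genes. The neutrophil granule and oxidase genes have a median of 2.17 and the macrophage markers one of 1.80, while erythrocyte markers lie near 0.

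The 6 genes whose profile lay nearest to the median profile of the 9 genes were fcer1gl, foxf2b, dusp5, itgb2, plxnc1 and arid5a. Likeness was the Euclidean distance between log2 CPM values, centred on each gene's mean over the 6 libraries, among 13087 named genes that averaged 1 CPM or more. The distance was 0.226 for fcer1gl and 0.494 to 0.613 for the others. Among the 9 genes themselves it was 0.465 for cybb and 0.684 (mpx) to 2.90 (lect2l) for the rest. The median profile is thus not one that all 9 genes share. Of the 6 nearest genes, fcer1gl and itgb2 were already in the list of other neutrophil genes. The gene plxnc1, a semaphorin receptor, was at 3.89, 2.23 and 2.14 CPM in uncut replicates 1, 2 and 3 and at 12.8, 13.2 and 11.7 CPM in the amputated ones. The phosphatase gene dusp5 was at 2.77, 2.70 and 1.75 CPM uncut and 13.2, 15.8 and 11.6 CPM amputated. The forkhead gene foxf2b and the DNA-binding protein gene arid5a had means under 1 CPM in uncut folds and 3.77 ± 0.89 and 2.39 ± 0.68 CPM (SD, n = 3) after amputation. This likeness is a description over 6 libraries, mostly of the step between the groups.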

How the data were processed

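The deposited table gives raw counts for 6 libraries, 1 row for each Ensembl gene. Beside them the authors gave a normalized signal, which is each library's counts divided by a size factor (tested on the values, largest relative deviation 5.5e-10). Per the file headers the table also holds a log2 fold change (uncut over amputated, turned round here), its standard error and a Wald score, a p-value and an adjusted p-value. Per the labels' protocols, Trizol RNA went into TruSeq libraries. The submitters' processing notes name TopHat, Cufflinks and DESeq2, and the sources used here give no counter, genome build or annotation.

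The tests used edgeR 4.0.16 (R 4.3.3): filterByExpr (minimum count 10, minimum total 15), TMM, glmQLFit and glmQLFTest with no covariate, adjusted over 17883 genes. Standard errors were taken as |log2 fold change| divided by √F. Replicates of each group differed by more than sampling noise (chi-square per degree of freedom 4.45 to 15.6).

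Same-numbered libraries deviated together from their group means (correlation across 12382 genes 0.325, 0.247 and 0.147, against −0.257 to 0.013 for other pairs), so the replicate number was used as a block in an alternative. Each gene's deviations within a group cancel out, so positive correlations of same-numbered libraries push those of other pairs down. The contrast with other pairs is therefore partly built in. The labels give the numbers alone, so this pairing rests on the data.

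The 9 genes and 12 further lists (124 names, 117 found, 4 of them by ID) were chosen with earlier results of these data known, and 1 gene first listed is not reported here. The naming rule took the 9 genes, up to 8 genes of each list by smallest adjusted p with those too sparse to test, and the 6 nearest profiles. Not every gene it took is printed, and cxcr4b and cebp1 were printed as further values of their lists. The LECT2 copies, duox2, zgc:91940, c6ast1, c6ast3 and c6ast4 were singled out after their values were seen. Alternatives were DESeq2's size factors, library totals alone, DESeq2 1.42.0, the authors' calls, other filters and thresholds, the block, and each library left out.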

Additional observations from a re-analysis of the deposited data

How the results depend on the processing

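Of the 9 genes, 8 were higher under every alternative except 3. It was 7 with a log2 fold change of at least 1, which dropped cyba (0.37), and 7 without amputated replicate 1. It was 6 of 6 tested at a mean of at least 5 CPM, which removed csf3r, ncf1 and ncf4. With the replicate number as a block 8 genes were higher, and no call among the 9 changed; outside them it added hdc and thbs1b to the calls named in lists and took none away. Leaving out a library gave 0.32 to 0.43 for cyba, 3.77 to 4.94 for lect2l and 2.26 to 2.74 for mpx. All of these were called except cyba without amputated replicate 1. The log2 ratio of npsn to mpx ran from −0.10 to 0.44 with a library left out. Ratios to mpx were no more than 1 SD away with 1 count added. Pairing libraries by replicate number cannot change a mean difference of these ratios, so the block was no check on them.

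Small list counts moved. With library totals alone, 4 other phagocyte oxidase genes were higher, and 0 were lower in that list, the G-CSF pathway and the guidance genes. At an adjusted p under 0.01 the lower counts of those 3 lists and the higher count of other NADPH oxidase genes were 0. There, and with DESeq2, 1 other phagocyte oxidase gene was higher, and without a library 1 to 3 were. With DESeq2's size factors, DESeq2 or the authors' calls, 0 other NADPH oxidase genes were higher. Without a library, that count was 0 to 1, the lower count of guidance genes 0 to 1 and that of G-CSF genes 0 to 1. At a log2 fold change of at least 1, 0 other phagocyte oxidase genes and 4 G-CSF genes were higher, 1 mast cell and 3 fold markers were lower, and the other NADPH oxidase genes higher and the lower phagocyte, G-CSF and guidance genes came to 0. At a mean of at least 5 CPM, 7 granule and surface genes, 2 transcription factors, 1 guidance gene and 4 macrophage markers were higher, with 0 mast cell and 0 thrombocyte markers, since fewer genes were tested. In the authors' calls, and with the replicate block, 1 thrombocyte marker was lower. Counts limit csf3r, npsn, lect2l, cybb, ncf1 and ncf4, which held as few as 10 to 16 counts in an uncut library. Other causes were not tested.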

Other observations

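The row zgc:91940, whose deposited human ortholog is C17orf62, the gene of a chaperone that helps the cybb and cyba pair mature in mammals, was at 13.4, 9.77 and 11.2 CPM in uncut replicates 1, 2 and 3 and at 12.6, 12.2 and 13.4 CPM in the amputated ones. Its groups overlapped, and its log2 fold change of 0.16 ± 0.13 did not pass the test (edgeR adjusted p = 0.365). The astacin genes c6ast1, c6ast3 and c6ast4, neighbours of npsn on chromosome 7, were nearly silent, with 1, 2 and 0 counts over the uncut group and 6, 1 and 0 over the amputated group.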
